A study of Mus musculus with 9 samples.

Results

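The genes described here sense nucleic acids in the cytosol or remove the nucleic acids that would set off that sensing. They are 10 genes, taken by symbol from a table of 21939 genes: Cgas, Sting1, Tbk1, Irf3, Mavs, Aim2, Trex1, Rnaseh2a, Rnaseh2b and Rnaseh2c. All 10 symbols were in the table, and 9 of them passed the filter on low counts, with Trex1 at 0 in every library. In this pathway the enzyme cGAS binds DNA in the cytosol and makes a cyclic dinucleotide that activates STING, an adaptor in the membrane of the endoplasmic reticulum. STING recruits the kinase TBK1, which phosphorylates the transcription factor IRF3, and IRF3 then switches on type I interferon and other antiviral genes. MAVS, an adaptor on mitochondria, feeds signals of RNA sensors into the same kinase and factor, while AIM2 binds DNA and builds an inflammasome. TREX1 degrades DNA in the cytosol, and RNase H2, an enzyme of 1 catalytic and 2 accessory subunits, cuts the RNA of RNA:DNA hybrids and ribonucleotides built into DNA.

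RNA was sequenced from long-term haematopoietic stem cells (LT-HSCs) of C57BL/6 bone marrow, sorted as Lin- Sca1+ cKit+ CD34- Flt3- cells, in 3 groups of 3 libraries. The aged+Ri group came from mice over 80 weeks old and received 100 µM Rhosin, which blocks RhoA, a small GTPase of the actin cytoskeleton, for 16 h. The aged group came from mice over 80 weeks old and the young group from mice of 10 to 16 weeks, both without Rhosin. Cells of all 3 groups were held outside the body for the same 16 h in balanced salt solution with serum at 3% oxygen before RNA was taken, so no group shows freshly isolated cells. The labels do not name a vehicle for the libraries without Rhosin, and they do not say how many mice a library holds. They call the libraries biological replicates without saying that the animals were separate, so p-values measure the spread between these libraries.

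Library totals ranged from 34357928 to 72502983 estimated counts. The 14 genes of a list of HSC markers were tested in all groups, and their summed level was 1433 to 2434 normalised CPM (counts scaled to library size) in aged+Ri, 2158 to 2818 in aged and 1935 to 3522 in young libraries. In aged+Ri against aged 11 had a negative log2 change and 3 a positive one, with a median of -0.54 against -0.06 for all tested genes. Against young 10 were negative and 4 positive, with a median of -0.47 against -0.24. There edgeR called 1 of the 14, Procr, higher in aged+Ri, as it did 0.959% of all tested genes. A count was present for 15117 to 16333 genes in aged+Ri, 15024 to 17987 in aged and 20129 to 21213 in young libraries, and mitochondrially encoded genes held 1.57% to 2.56% of the counts in aged+Ri, 2.57% to 3.54% in aged and 4.14% to 4.68% in young libraries. The Y-linked gene Ddx3y had 2577 counts in young 2 and 6400 in young 3, and at most 1 in any other library. A second Y-linked gene, Kdm5d, had 869 counts in young 2, 968 in young 3, 58 in aged+Ri 1 and at most 2 in any other library. The sequencing batches in the labels cross the groups in part: aged+Ri 1 and aged 1 were in batch 1, aged+Ri 2, aged+Ri 3, aged 2 and young 2 in batch 2, aged 3 and young 3 in batch 3, and young 1 was split over batches 1 and 3. Batch and the young libraries with Y-linked transcripts were examined by values within a batch, a fit with batch as a covariate and a fit with young 1 as the only young library, and the part of the other differences was not tested.

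Gene positions are those of the GRCm38 annotation. Cgas lies on chromosome 9 from 78430526 to 78443237 on the minus strand, Sting1, listed there as Tmem173, on chromosome 18 from 35733679 to 35740554 on the minus strand, and Tbk1 on chromosome 10 from 121546455 to 121586787 on the minus strand. Irf3 lies on chromosome 7 from 44997648 to 45002848, Mavs on chromosome 2 from 131234063 to 131248025 and Aim2 on chromosome 1 from 173350879 to 173466040, all on the plus strand. Trex1 lies on chromosome 9 from 109057933 to 109059734 and Rnaseh2a on chromosome 8 from 84956610 to 84969767, both on the minus strand. Rnaseh2b lies on chromosome 14 from 62292589 to 62372992 and Rnaseh2c on chromosome 19 from 5601873 to 5607019, both on the plus strand. Exons of another gene share 24.8% of the exon bases of Rnaseh2c (Kat5, opposite strand), 14.7% of those of Rnaseh2a (Gm49661 and Prdx2), 4.9% of those of Cgas, 2.6% of those of Irf3 and 1.1% of those of Rnaseh2b. No source used here says whether reads were counted by strand, and those in these stretches cannot be assigned with certainty. Sting1, Tbk1, Mavs and Aim2 share no exon base with another gene.

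Across the 9 libraries, and per kilobase of exon, Rnaseh2c had the highest level of these genes and Cgas the lowest apart from Trex1. The mean level was 25.1 CPM per kilobase for Rnaseh2c (11.7 to 36.8 over the libraries), 16.8 for Tbk1 (4.30 to 26.3), 15.5 for Rnaseh2a (7.65 to 22.7) and 9.65 for Irf3 (2.77 to 15.4). It was 7.74 for Sting1 (1.13 to 22.4), 6.71 for Rnaseh2b (0.0817 to 17.6), 3.82 for Aim2 (0.676 to 7.16), 2.92 for Mavs (0.477 to 9.80) and 1.77 for Cgas (0.739 to 4.27). The ranges of neighbours in this order overlapped throughout. The widest relative spread over libraries was that of Rnaseh2b, and the narrowest those of Rnaseh2a and Rnaseh2c, whose highest library was 2.97 and 3.15 times the lowest.

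**Figure D1:**
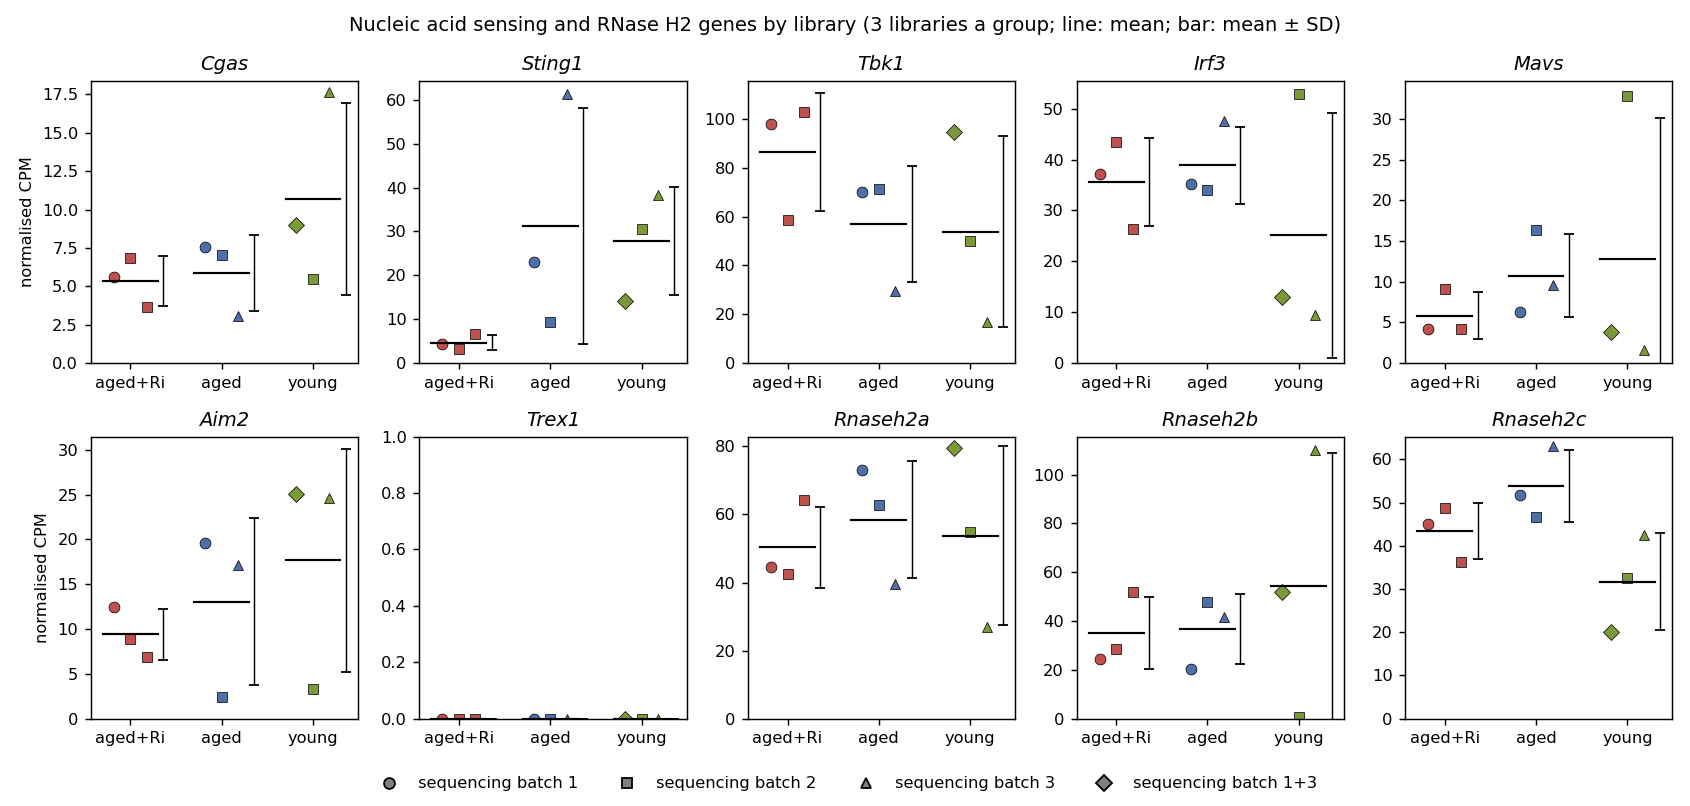
Normalised CPM of the 10 genes in every library (points, shaped by sequencing batch; line, group mean; bar, mean ± SD, cut at 0 where the SD exceeds the mean), with aged+Ri, aged and young from left to right and a separate linear axis for each gene. All 3 aged+Ri libraries of Sting1 lie between 3.11 and 6.52 CPM, below the aged and the young ones, and Trex1 is at 0 throughout.

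The study's design asks what age does to these stem cells and what blocking RhoA does to aged ones. None of the 9 tested genes passed the quasi-likelihood test of edgeR at a Benjamini-Hochberg adjusted p of 0.05 in any of the 3 comparisons, which share libraries, since each group enters 2 of them. The background was just as sparse in the first 2 comparisons. Over all 15127 tested genes, the test called 0.0% for aged+Ri against aged, 0.0331% for aged against young and 1.45% for aged+Ri against young. At an unadjusted p under 0.05 the count of these genes was 1, 0 and 1 in the same order, where 9.14%, 16.2% and 23.4% of all tested genes had such a p. DESeq2 called 1, 0 and 1 of them, against 2.91%, 10.5% and 17.4% of the genes it tested. The single gene behind each of these counts of 1 was Sting1.

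The direction of the changes was uneven. For aged+Ri against aged, 8 of the 9 log2 changes were negative, and their median was -0.21 where that of all tested genes was -0.06. In aged against young, 4 of 9 were negative, with a median of 0.08 against -0.13 for all tested genes. In aged+Ri against young, 6 of 9 were negative, with a median of -0.63 against -0.24. Standard errors ran from 0.42 to 1.09 on the log2 scale, so that a 95% interval of the least variable gene, Rnaseh2c, reached about 0.9 to either side of its estimate.

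**Figure D2:**
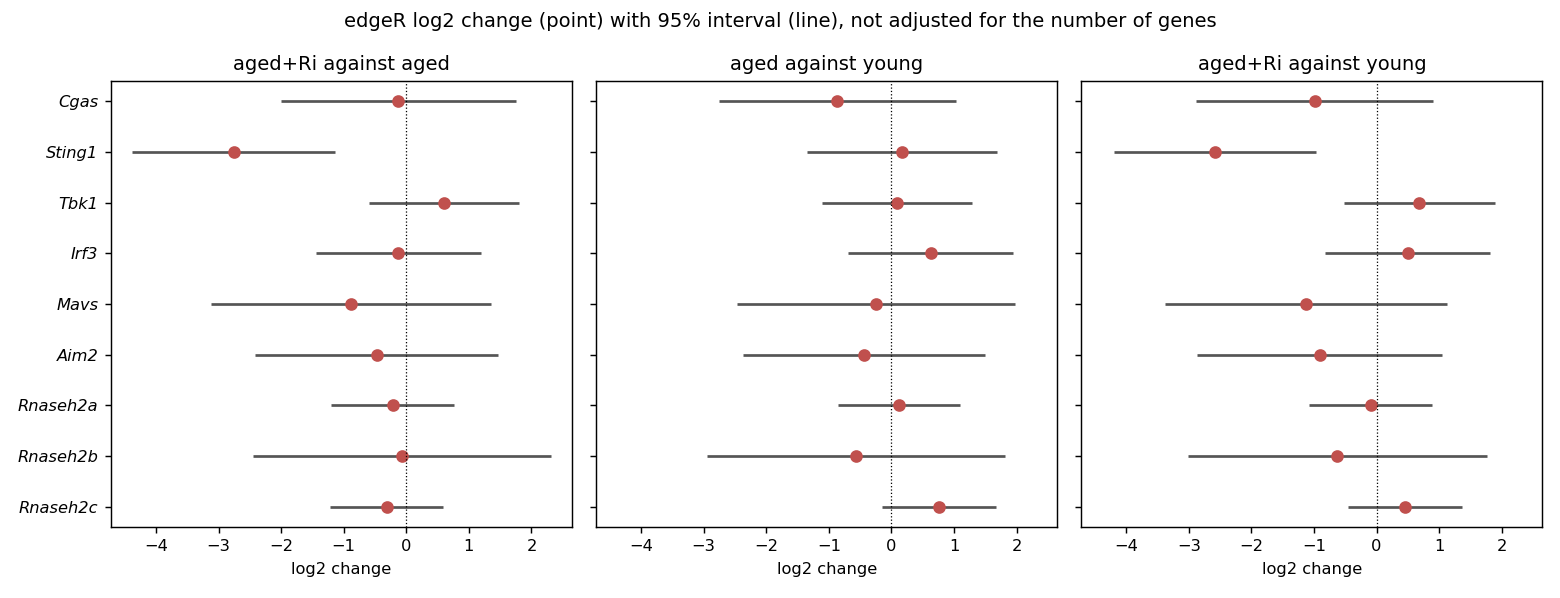
Log2 change from edgeR (points) with its 95% interval (lines, not adjusted for the number of genes) for the 9 tested genes, in 1 panel per comparison. The Sting1 interval lies below 0 in the panels aged+Ri against aged (-4.38 to -1.13) and aged+Ri against young (-4.20 to -0.97), and the other intervals include 0.

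Sting1, the adaptor on which DNA sensing by cGAS converges, had the lowest levels in the Rhosin-treated libraries. It had 4.24, 3.11 and 6.52 CPM in aged+Ri, against 23.0, 9.35 and 61.4 CPM in aged and 14.2, 30.7 and 38.4 CPM in young libraries. Every aged+Ri library was below every library of both other groups, while aged and young overlapped widely. Such a gap downward was present for 8.66% of all tested genes in aged+Ri against aged and for 19.9% in aged+Ri against young. The depth was ample: the lowest library held 151 estimated counts of Sting1, and no value was a fraction.

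The Sting1 mean was 4.62 ± 1.74 CPM in aged+Ri and 31.3 ± 27.0 CPM in aged libraries (SD, n = 3 each), a log2 change of -2.76 ± 0.75 (SE). Its 95% interval ran from -4.38 to -1.13, and edgeR's adjusted p was 0.335. Against the young mean of 27.8 ± 12.3 CPM (SD, n = 3) the log2 change in aged+Ri was -2.59 ± 0.75, with an interval of -4.20 to -0.97 and an edgeR adjusted p of 0.0877. Aged against young gave 0.17 ± 0.71, with an interval of -1.35 to 1.69 and an edgeR adjusted p of 0.936. DESeq2 put both differences of aged+Ri past the threshold, with adjusted p of 0.0183 against aged and 0.00871 against young.

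The size of the Sting1 difference depended on single libraries. Without aged 3, its highest library, the log2 change of aged+Ri against aged was -1.80. With young 1 as the only young library, which leaves out young 2 and young 3 with their Y-linked transcripts, aged+Ri against young was at -1.56 and an edgeR adjusted p of 0.291. Within sequencing batches 1 or 2 libraries stand on each side, and no test was run batch by batch. The difference of aged+Ri and aged in log2(CPM + 0.5) was -2.31 in batch 1 and -0.97 in batch 2. That of aged+Ri and young was -2.63 in batch 2. With batch as a covariate the fitted changes were -2.15 ± 0.80 against aged and -2.02 ± 0.77 against young, with edgeR adjusted p of 0.542 and 0.187.

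Markers of neutrophils and monocytes moved with Sting1. The summed level of the 14 markers was 87.4, 124.7 and 73.7 CPM in aged+Ri, against 636, 468 and 10470 CPM in aged and 1071, 1396 and 3727 CPM in young libraries. These groups too did not overlap between aged+Ri and the others, and aged 3 was the highest library in both Sting1 and this sum. For aged+Ri against aged, 14 of 14 markers had a negative log2 change and 0 passed edgeR's test, while against young 13 of 14 were negative and 2 passed. Of all tested genes, 0.0% and 1.45% passed in these comparisons. In aged+Ri libraries 4 to 9 of the 14 were under 1 CPM, against 1 to 4 in aged and 0 to 4 in young libraries. Elane, a neutrophil granule protease, was at 6.76, 0.0 and 0.0564 CPM in aged+Ri, against 107.9, 112.5 and 4233 CPM in aged and 176, 220.4 and 975.7 CPM in young libraries.

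The marker sums of other cell types did not all run the same way. The sum of 12 macrophage and dendritic cell markers was 86.0, 54.6 and 152.6 CPM in aged+Ri, 121, 112.5 and 129.04 CPM in aged and 32.8, 106.2 and 132.2 CPM in young libraries, groups that overlap, and the defining macrophage genes C1qa and C1qb were under 1 CPM in every library. Cd68 and Clec9a made up most of that sum in aged+Ri, and of the 9 tested markers 6 had a negative log2 change in aged+Ri against aged (median -2.41) and 6 in aged+Ri against young (median -3.42), with 0 called by edgeR. The sum of Cd34, Flt3 and Cd48, genes of cells that the sort or the stem cell definition leaves out, was 10.8, 36.7 and 36.4 CPM in aged+Ri, against 82.0, 129.4 and 91.0 CPM in aged and 150.8, 96.7 and 201.1 CPM in young libraries. All aged+Ri libraries were again the lowest in this sum. Singly, Flt3 kept this order, while Cd34 and Cd48 overlapped between aged+Ri and both other groups. Cd34 was at 7.95 CPM in young 3 and Cd48 at 0.051 CPM in young 2. Summed T and natural killer cell markers were at 5.98 to 62.2 CPM in aged+Ri, 55.2 to 301.4 CPM in aged and 108.9 to 549.04 CPM in young libraries, and megakaryocyte markers at 37.9 to 230.3 CPM in aged+Ri, 294 to 572 CPM in aged and 132 to 302 CPM in young libraries. B cell and plasma cell markers were at 157 to 459 CPM in aged+Ri, 85.5 to 2060 CPM in aged and 922 to 16079 CPM in young libraries, while erythroid genes were at 721 to 1525 CPM in aged+Ri, 14.9 to 73.4 CPM in aged and 46.9 to 764 CPM in young libraries. The erythroid sum was thus the one that was higher in every aged+Ri than in every aged library. In bulk RNA, fewer cells of a type and less RNA per cell cannot be told apart, and the part of these cells in the Sting1 difference was not tested.

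Among 9538 genes with at least 5 CPM on average, the ones whose profile over the 9 libraries was most like that of Sting1 were C3, a complement protein, and Tyrobp, a signalling adaptor of myeloid and natural killer cells, both with a Pearson coefficient of 0.919 on log2(CPM + 0.5). The 9 points share their libraries, groups and batches. Tyrobp was at 6.90, 2.05 and 16.3 CPM in aged+Ri, against 68.4, 73.3 and 444.8 CPM in aged and 134.6, 76.9 and 568.4 CPM in young libraries. Every aged+Ri library was below the rest, as was so for 8.66% of all tested genes against aged and 19.9% against young. Tyrobp was picked for its likeness to Sting1 in these same libraries, so this gap follows in part from the choice and is not separate evidence. Its log2 change was -4.54 against aged and -4.95 against young, with edgeR adjusted p of 0.335 and 0.0664.

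**Figure D3:**
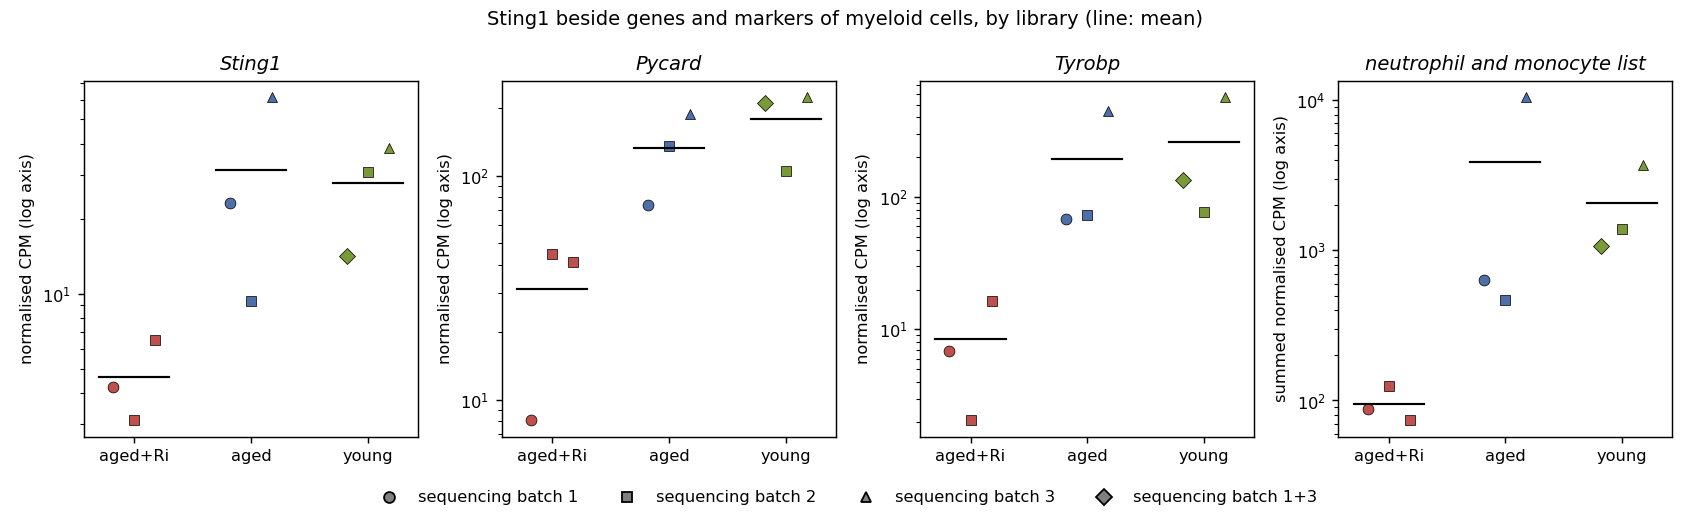
Normalised CPM of Sting1, Pycard and Tyrobp and the summed CPM of the 14 neutrophil and monocyte markers by library on log axes (points, shaped by sequencing batch; line, group mean), with aged+Ri, aged and young from left to right. In each panel all 3 aged+Ri libraries lie below the other 6. Tyrobp was picked for its likeness to Sting1 over these same libraries.

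Cgas, the DNA sensor that makes the messenger for STING, was low in all groups. It had 5.61, 6.87 and 3.64 CPM in aged+Ri, against 7.55, 7.01 and 3.05 CPM in aged and 8.97, 5.46 and 17.6 CPM in young libraries. The groups overlapped, and young 3 alone stood above 10 CPM. The log2 change was -0.13 ± 0.87 for aged+Ri against aged, -0.86 ± 0.88 for aged against young and -0.99 ± 0.88 for aged+Ri against young, with edgeR adjusted p of 0.991, 0.662 and 0.523. Within batches, aged minus young was 0.33 in batch 2 and -2.35 in batch 3. Cgas had a fractional count in 6 of the 9 libraries. A profile near to its own was that of Ankfy1 (coefficient 0.973).

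Aim2, the DNA sensor of the inflammasome, showed no ordering by group. It had 12.5, 8.84 and 6.91 CPM in aged+Ri, against 19.6, 2.37 and 17.2 CPM in aged and 25.1, 3.31 and 24.6 CPM in young libraries. The lowest values, in aged 2 and young 2, are both libraries of batch 2, and they set the overlap with aged+Ri. The log2 change of aged+Ri was -0.47 ± 0.90 against aged and -0.91 ± 0.91 against young, with edgeR adjusted p of 0.953 and 0.578, and that of aged against young was -0.44 ± 0.90 with 0.858. The direction turned between batches: aged+Ri minus aged was -0.63 in batch 1 and 1.54 in batch 2. Aim2 counts were fractional in all 9 libraries. Its nearest profile was that of Mgme1 (0.920).

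Mavs, the mitochondrial adaptor for RNA sensors, varied most within the young group. It had 4.15, 9.12 and 4.23 CPM in aged+Ri, against 6.31, 16.3 and 9.58 CPM in aged and 3.86, 32.8 and 1.60 CPM in young libraries. Young 2 was the highest and young 3 the lowest of all 9 libraries, a gap of 20.5 times within 1 group. The log2 change was -0.88 ± 1.04 for aged+Ri against aged, -0.25 ± 1.03 for aged against young and -1.13 ± 1.04 for aged+Ri against young, with edgeR adjusted p of 0.899, 0.938 and 0.543. Aged minus young was -0.98 in batch 2 and 2.27 in batch 3. The nearest profile was that of Zfp647 (0.933).

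Tbk1, the kinase that STING and MAVS recruit, was the only 1 of the 9 genes with a positive log2 change in aged+Ri against aged. It had 98.1, 58.5 and 102.7 CPM in aged+Ri, against 70.2, 71.2 and 29.6 CPM in aged and 94.7, 50.0 and 16.8 CPM in young libraries. The groups overlapped, with the batch 3 libraries aged 3 and young 3 the lowest. The log2 change was 0.60 ± 0.56 for aged+Ri against aged, 0.08 ± 0.56 for aged against young and 0.68 ± 0.56 for aged+Ri against young, with edgeR adjusted p of 0.840, 0.960 and 0.486. A profile near to its own was that of H2-T10 (0.968).

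Irf3, the transcription factor that TBK1 phosphorylates, was steady in aged cells with or without Rhosin and scattered in young ones. It had 37.1, 43.4 and 26.3 CPM in aged+Ri, against 35.1, 34.0 and 47.6 CPM in aged and 13.1, 52.8 and 9.52 CPM in young libraries. Young 2 was the highest of all libraries, and young 1 and young 3 the lowest. The log2 change was -0.13 ± 0.61 for aged+Ri against aged, 0.63 ± 0.61 for aged against young and 0.50 ± 0.61 for aged+Ri against young, with edgeR adjusted p of 0.986, 0.644 and 0.656. Aged minus young was -0.63 in batch 2 and 2.26 in batch 3. The nearest profiles were those of Rpp14 and Ptger3 (0.972 each).

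Trex1, the exonuclease that clears DNA from the cytosol, was listed at 0 counts in every library of every group. All 1147 of its exon bases lie inside exons of Atrip, a gene of the DNA damage response on the same strand. Atrip had 13.7, 7.35 and 12.8 CPM in aged+Ri, against 13.7, 8.16 and 13.8 CPM in aged and 3.90, 12.1 and 2.96 CPM in young libraries, with fractional counts in 9 of 9. How the counting treated reads shared by the 2 genes is not given in the sources used here. The level of Trex1 is not known from this table, and no limit or fold change is given for it.

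The 3 subunits of RNase H2 were each above 20 CPM in every library but young 2, where Rnaseh2b was not, and none passed the test. Rnaseh2a, the catalytic subunit, had 44.6, 42.5 and 64.1 CPM in aged+Ri, against 73.1, 62.9 and 39.4 CPM in aged and 79.7, 54.9 and 26.8 CPM in young libraries. These ranges overlapped, and batch 3 held the lowest aged and the lowest young library. The log2 change was -0.21 ± 0.46 for aged+Ri against aged, 0.12 ± 0.46 for aged against young and -0.09 ± 0.46 for aged+Ri against young, with edgeR adjusted p of 0.958, 0.930 and 0.925. Rnaseh2a counts were fractional in 5 of 9 libraries, and its nearest profile was that of Gab3 (0.959).

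Rnaseh2b, an accessory subunit, had 24.4, 28.7 and 52.0 CPM in aged+Ri, against 20.4, 47.7 and 41.6 CPM in aged and 52.0, 0.510 and 110.1 CPM in young libraries. Young 2, with 20 counts, and young 3 were the lowest and highest of all libraries, 216 times apart. The log2 change was -0.06 ± 1.08 for aged+Ri against aged, -0.57 ± 1.09 for aged against young and -0.63 ± 1.09 for aged+Ri against young, with edgeR adjusted p of 0.998, 0.846 and 0.766. Batch 2 and batch 3 gave opposite signs for aged minus young, 5.58 and -1.39. Such a gap in 1 library was mostly a feature of the young ones: genes under 1 CPM in 1 library and at 10 CPM or more in the other 8 numbered 24 in young 1, 19 in young 2 and 50 in young 3, against 0 to 3 in each other library. Tspan6, whose profile was nearest to that of Rnaseh2b (0.989), was also among the genes low in young 2, with 2 counts there.

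Rnaseh2c, the other accessory subunit, had the smallest standard errors of the 9 genes. It had 45.1, 48.8 and 36.3 CPM in aged+Ri, against 51.8, 46.7 and 63.1 CPM in aged and 20.1, 32.5 and 42.4 CPM in young libraries. All 3 aged libraries were above all 3 young ones, a gap upward that 8.58% of all tested genes showed in this comparison. The log2 change of aged against young was 0.77 ± 0.42, with a 95% interval of -0.14 to 1.67 and an edgeR adjusted p of 0.376, and within batches it was 0.51 in batch 2 and 0.57 in batch 3. With Rhosin it was -0.31 ± 0.42 against aged and 0.45 ± 0.42 against young, with edgeR adjusted p of 0.917 and 0.542. The exons that Rnaseh2c shares with Kat5 limit how far its reads can be assigned. The nearest profiles were those of Tcf15 (0.965) and Dctn1 (0.962).

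**Figure D4:**
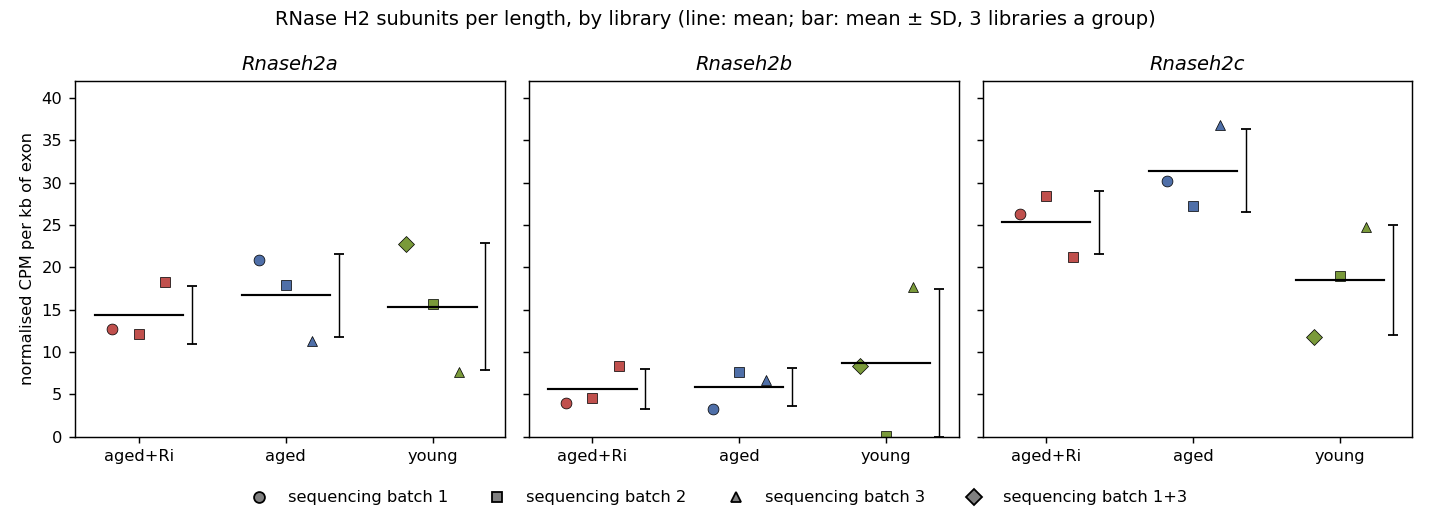
Normalised CPM per kilobase of exon of the 3 RNase H2 subunits by library, on 1 shared linear axis (points, shaped by sequencing batch; line, group mean; bar, mean ± SD, cut at 0 where the SD exceeds the mean), with aged+Ri, aged and young from left to right. Group means of Rnaseh2a lie between 14.4 and 16.7 and those of Rnaseh2c between 18.5 and 31.4, while Rnaseh2b ranges from 0.0817 to 17.6 over the libraries.

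The subunits did not keep a fixed proportion to each other. Per kilobase, the mean levels of Rnaseh2a, Rnaseh2b and Rnaseh2c were 14.4 ± 3.39, 5.61 ± 2.38 and 25.3 ± 3.73 CPM in aged+Ri libraries (SD, n = 3). They were 16.7 ± 4.92, 5.86 ± 2.29 and 31.4 ± 4.92 CPM in aged, and 15.3 ± 7.53, 8.68 ± 8.78 and 18.5 ± 6.53 CPM in young libraries. In each group Rnaseh2c had the highest mean and Rnaseh2b the lowest, although in young 3 Rnaseh2b per kilobase exceeded Rnaseh2a, and in young 1 Rnaseh2a, at 22.7, exceeded Rnaseh2c, at 11.7. The highest library was young 1 for Rnaseh2a, young 3 for Rnaseh2b and aged 3 for Rnaseh2c.

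The wider pathway was taken from 6 lists of sensors, adaptors, nucleases and targets with 141 genes in the table, of which 132 were tested. For aged+Ri against aged and for aged against young 0 of 132 passed edgeR's test, with 12 (9.09%) and 16 (12.1%) at an unadjusted p under 0.05, where 9.14% and 16.2% of all tested genes had one. DESeq2 called 4 and 4 of the pathway genes, where it called 2.91% and 10.5% of all genes it tested. Between aged+Ri and young 2 passed (1.52%, against 1.45% of all tested genes), both higher in aged+Ri, with 26 (19.7%, against 23.4%) at an unadjusted p under 0.05. DESeq2 called 19 pathway genes there, where it called 17.4% of all genes it tested. These shares were close to or below those of all tested genes. The median log2 changes of 0.04, -0.04 and 0.01 stood beside -0.06, -0.13 and -0.24 for all tested genes.

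No gene in the list of kinase partners, TRAF adaptors and interferon regulatory factors passed the edgeR test in its main settings. For aged+Ri against aged, 21 of these 26 genes lay above 0 on the log2 scale and 5 below. The list's median was 0.34, where that of all tested genes was -0.06. An unadjusted p under 0.05 was reached by 0 of the 26, against 9.14% of all tested genes. Azi2, an adaptor that activates TBK1, had 113.6, 102.3 and 95.3 CPM in aged+Ri, against 80.2, 67.8 and 45.0 CPM in aged libraries. Optn, an autophagy receptor that TBK1 phosphorylates, had 98.4, 60.1 and 58.8 CPM in aged+Ri, against 13.6, 29.0 and 13.8 CPM in aged libraries. For both genes the groups did not overlap, as was so upward for 7.87% of all tested genes, and edgeR's adjusted p was 0.595 and 0.562. Tank, a further TBK1 adaptor, had 209.6, 72.7 and 128.3 CPM in aged+Ri libraries. It had 50.4, 73.2 and 77.8 CPM in aged and 20.9, 61.9 and 6.21 CPM in young libraries. For Tank, aged+Ri and aged thus overlapped. In aged+Ri against young, which differ in age as well as in Rhosin, its log2 change was 2.21 ± 0.67. The edgeR adjusted p of that change was 0.0938.

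No inflammasome gene passed the edgeR test in the comparisons with Rhosin. Of 10 tested, 8 had a negative log2 change in aged+Ri against aged, with a median of -0.39, and 8 of 10 in aged+Ri against young, with a median of -1.01. In each of these comparisons 3 of the 10 had an unadjusted p under 0.05 with a negative change and 1 with a positive one, where 9.14% and 23.4% of all tested genes had such a p in either direction. Pycard, which encodes ASC, the adaptor that joins AIM2 to caspase-1, had 8.08, 44.5 and 41.1 CPM in aged+Ri, against 74.0, 136.1 and 189.0 CPM in aged and 210.002, 104.9 and 224.0 CPM in young libraries. All aged+Ri libraries were below all others, as was so for 8.66% of all tested genes against aged and 19.9% against young. The Pycard log2 change was -2.09 ± 0.58 against aged and -2.52 ± 0.59 against young, with edgeR adjusted p of 0.335 and 0.0521. The neutrophil and monocyte markers given above moved with Pycard as well, and their part in it was not tested. Ninj1, which ruptures the plasma membrane in lytic cell death, went the other way, with 392, 324 and 382 CPM in aged+Ri, against 208, 153 and 127 CPM in aged and 54.9, 76.5 and 184 CPM in young libraries. Its log2 change was 1.17 ± 0.41 against aged and 1.80 ± 0.42 against young, with edgeR adjusted p of 0.434 and 0.0521. Against young, both Pycard and Ninj1 passed with DESeq2, the newer quasi-likelihood method, no low-count filter and the stricter filter, with adjusted p of 0.00643 to 0.0444 for Pycard and 0.0181 to 0.0472 for Ninj1. Neither passed with the batch covariate or with the 2 groups alone. With a library left out, the edgeR adjusted p reached 0.138 for Pycard and 0.154 for Ninj1.

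None of the other DNA and RNA sensors or the other nucleases passed the edgeR test in its main settings, although some passed under alternatives. Of 27 further DNA sensors and STING regulators, 11 were positive in aged+Ri against aged (median -0.27), 13 in aged against young (-0.01) and 11 in aged+Ri against young (-0.21). Surf4 and Tmed2, membrane proteins of the traffic between endoplasmic reticulum and Golgi, had log2 changes of 1.37 ± 0.55 and 1.25 ± 0.47 in aged+Ri against aged. These groups overlapped for both genes, with edgeR adjusted p of 0.482 and 0.460, and with a library left out the Surf4 change fell to 0.48. In aged+Ri against young the changes were 2.25 ± 0.57 and 1.99 ± 0.48, with edgeR adjusted p of 0.0669 and 0.0561. There edgeR's newer method put Surf4 (0.0481) and Tmed2 (0.0412) past the threshold, and the batch covariate Tmed2 (0.0217). With a library left out the edgeR adjusted p against young reached 0.189 for Surf4 and 0.180 for Tmed2. Mndal and Ifi203, DNA-binding relatives of AIM2, had log2 changes of -1.15 ± 0.33 and -0.90 ± 0.36 in aged against young, both without overlap of the groups, as was so downward for 16.1% of all tested genes, and with edgeR adjusted p of 0.191 and 0.254. In aged+Ri against young Ifi203 was at -1.49 ± 0.36 with an edgeR adjusted p of 0.0589. Its groups did not overlap there, as was so downward for 19.9% of all tested genes. It passed there with DESeq2 (adjusted p 0.00274), edgeR's newer method (0.0487), the stricter filter (0.0486) and the batch covariate (0.0474). With a library left out its edgeR adjusted p ran from 0.0387 to 0.180. Of 24 RNA sensors and MAVS regulators, 14, 12 and 12 were positive in aged+Ri against aged, aged against young and aged+Ri against young (medians 0.05, -0.02 and -0.09). Of 25 other nucleases and nucleic acid enzymes, 12, 13 and 12 were positive in the same order of comparisons (medians -0.03, 0.01 and -0.02), and 1 had an unadjusted p under 0.05 in each comparison.

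The 2 genes that passed were interferon targets downstream of IRF3. Of 20 tested targets, 13 were positive in aged+Ri against young, with a median of 0.68. There 2 passed edgeR's test upward, where 0.959% of all tested genes did. For aged+Ri against aged 10 were positive and 10 negative, with a median of 0.02. For aged against young 11 were positive, with a median of 0.27. Ifit1, an antiviral protein that binds foreign RNA, had 44.9, 10.2 and 20.0 CPM in aged+Ri, against 5.98, 6.19 and 36.2 CPM in aged and 0.344, 0.128 and 0.057 CPM in young libraries. Every aged+Ri and every aged library was above every young one, as was so for 12.4% and 8.58% of all tested genes. In the young libraries Ifit1 had 17, 5 and 2 counts, and aged+Ri and aged overlapped. Ifit1 rose in aged+Ri against young with a log2 change of 7.11 ± 1.21 and an edgeR adjusted p of 0.0188, which was 0.0663 without aged+Ri 1 and 0.0676 without aged+Ri 3. For aged against young the change was 6.47 ± 1.17 with an edgeR adjusted p of 0.0986, and for aged+Ri against aged 0.64 ± 0.92 with 0.929. Within batch 2 the difference of aged+Ri and young in log2(CPM + 0.5) was 4.56 for Ifit1 and 4.78 for Ifit3.

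Ifit3, a partner of the Ifit1 protein, had 3.62, 3.04 and 63.9 CPM in aged+Ri, against 0.0, 0.0181 and 0.0 CPM in aged and 0.0808, 0.0510 and 0.228 CPM in young libraries. Aged+Ri 3 was far above all other libraries, and the aged group held 1 count in all. Ifit3 rose in aged+Ri against young with a log2 change of 7.60 ± 1.64 and an edgeR adjusted p of 0.0394, and without aged+Ri 3 the change was 4.80 with an edgeR adjusted p of 0.179. Over its 17 alternatives the call was lost in 11. In aged+Ri against aged the edgeR adjusted p was 0.127, and 0.0160 with no low-count filter. No fold change is given there because the aged group holds a single count. Ifit3 has a near-identical copy, Ifit3b, and its counts were fractional in 5 of 9 libraries, so the split between the 2 is uncertain. Ifnb1, the gene of interferon beta, was at 0 counts in all aged+Ri libraries, at 5, 0 and 0 counts in aged and at 5, 4 and 3 counts in young libraries, and was named after its values were seen.

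Interferon targets are known to carry a DNA motif for IRF factors in their promoters, so the promoters of targets and sensing genes are set side by side. The core of the interferon-stimulated response element, searched on both strands as GAAA, any 2 bases and GAAA in 250 bases before to 50 bases after the gene start, was present for 10 of the 16 targets with a sequence in the RefSeq table (GRCm38.p6). It was present for 0 of 8 sensing and RNase H2 genes with a sequence and for 3.44% of all 32851 windows. The 200 bases before the start are printed 5′ to 3′ along each gene's strand, in capitals where the motif or its reverse complement (TTTC, any 2 bases, TTTC) stands, for the 2 targets that passed the test and for 2 sensing genes without the motif.
Ifit1 (chr19:34640689-34640888, plus strand): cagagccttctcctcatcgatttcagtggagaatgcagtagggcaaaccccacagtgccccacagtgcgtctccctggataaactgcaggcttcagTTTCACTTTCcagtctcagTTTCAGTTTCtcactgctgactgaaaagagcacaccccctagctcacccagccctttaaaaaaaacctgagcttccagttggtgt
Ifit3 (chr19:34583329-34583528, plus strand): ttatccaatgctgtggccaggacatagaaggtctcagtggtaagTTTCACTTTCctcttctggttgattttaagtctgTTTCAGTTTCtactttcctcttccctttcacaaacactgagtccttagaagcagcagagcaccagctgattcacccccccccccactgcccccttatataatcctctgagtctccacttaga
Cgas (chr9:78443238-78443437, minus strand): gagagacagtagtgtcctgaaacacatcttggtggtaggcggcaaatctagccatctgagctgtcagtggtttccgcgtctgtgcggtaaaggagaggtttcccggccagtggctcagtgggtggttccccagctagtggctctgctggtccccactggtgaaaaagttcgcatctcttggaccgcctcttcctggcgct
Mavs (chr2:131233863-131234062, plus strand): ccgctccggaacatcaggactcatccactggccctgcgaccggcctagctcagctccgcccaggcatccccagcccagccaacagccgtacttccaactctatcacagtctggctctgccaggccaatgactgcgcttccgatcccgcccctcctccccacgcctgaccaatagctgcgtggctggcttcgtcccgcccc
The motifs lie 104 to 95 and 85 to 76 bases before the start of Ifit1, and 156 to 147 and 122 to 113 bases before that of Ifit3. The GC box core GGGCGG, searched on both strands, was found for 6 of the 8 sensing and RNase H2 genes, and in 35.7% of all windows. The ETS core CCGGAAGT and the E box CACGTG were each found for 1 of the 8, Tbk1, and in 3.89% and 7.15% of all windows. Counts of genes here, and those for the interferon motif above, take a gene with any matching window, while the percentages count single windows, so the measures are not alike. A match describes the letters of the window and does not show that a factor binds there.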

How the data were processed

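The members and the pathway lists were chosen with earlier results of these data known. The deposited table holds estimated counts per gene: the authors' values are whole numbers within 0.005 in 71.6% to 80.9% of the entries of a library, and fractions otherwise. Per the submitters' processing notes, the tools were featureCounts, SAMtools 1.14, STAR 2.7.0, cutadapt 1.18 and R 4.2.0, and the build was GRCm38. The strand setting, the annotation and the handling of shared reads are not given in the sources used here. All 9 columns were used, each matched to its library by the description in the labels.

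Estimated counts were rounded to whole numbers, filtered with edgeR's filterByExpr (15127 genes kept) and scaled by TMM. A quasi-likelihood model of group means over all 9 libraries was fitted with edgeR 4.0.16 in R 4.3.3, with robust estimation and no block or batch term. Tests were two-sided with Benjamini-Hochberg adjustment over all tested genes and a threshold of 0.05. Values are TMM-normalised CPM, and differences within a batch use log2(CPM + 0.5). Alternatives were DESeq2 1.42.0, its size factors in edgeR, edgeR's newer quasi-likelihood method, no filter, a filter of 10 counts in every library of a group, the 2 groups alone, the replicate number as a block, the batch as a covariate, each library left out, and young 1 alone. The scripts were tested on simulated data. Annotation symbols matched 21762 of 21939 genes. All 10 genes were named, with up to 3 genes of each pathway list and comparison by smallest unadjusted p and at least 5 CPM, any past the threshold, and the 2 most alike in profile. A few genes that these rules select are not reported here.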

Additional observations from a re-analysis of the deposited data

How the results depend on the processing

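None of the 9 tested sensing and RNase H2 genes was called by edgeR under its alternatives, including each library left out, and DESeq2 called 1 in each comparison with aged+Ri. That gene was Sting1, with log2 changes of -2.74 against aged and -2.65 against young. Of 477 alternative log2 changes of these genes, 438 were counted as keeping their direction and their side of the threshold, 2 newly passed it and 37 changed sign. The 438 include Irf3 in aged+Ri against aged, which reached a slightly positive 0.0049 with a library left out. For aged against young, young 1 alone gave Tbk1 -0.67, Mavs 1.54, Rnaseh2a -0.38 and Nt5c3 -0.12. The batch covariate gave Tbk1 -0.15, Mavs 0.54, Rnaseh2a -0.035 and Rnaseh2b 0.70 for the same comparison. It gave Aim2 0.89 and Rnaseh2b 0.44 for aged+Ri against aged, and Aim2 0.56 and Rnaseh2b 1.143 for aged+Ri against young. With young 1 alone, aged+Ri against young gave Tbk1 -0.0755 and Mavs 0.66. The cause of these changes of sign was not tested. Leaving out each library in turn, log2 changes for aged against young ran from -0.89 to 0.0946 for Aim2, -0.78 to 2.08 for Mavs, -0.19 to 0.44 for Rnaseh2a, -1.04 to 0.49 for Rnaseh2b, -0.78 to 0.64 for Sting1, -0.33 to 0.69 for Tbk1 and -4.29 to 3.16 for Il1b. For aged+Ri against aged they ran from -0.49 to 0.03 for Cgas and -0.53 to 0.17 for Rnaseh2b, and for aged+Ri against young from -1.72 to 1.13 for Mavs, -0.41 to 0.22 for Rnaseh2a and -1.12 to 0.43 for Rnaseh2b. Of all genes it tested, DESeq2 called 2.91% for aged+Ri against aged, 10.5% for aged against young and 17.4% for aged+Ri against young. Genes called over the whole table for aged+Ri against aged numbered 0, with 432 by DESeq2, 5 by the newer quasi-likelihood method, 11 with no filter, 2 with the 2 groups alone, 5 with the batch covariate and 0 to 6 with a library left out. For aged against young they numbered 5, with 1871, 21, 20 and 1 under the first 4 of these, 358 with young 1 alone and 2 to 80 with a library left out. For aged+Ri against young they numbered 219, with 2947 by DESeq2, 463 by the newer method, 57 with the 2 groups alone, 735 with young 1 alone and 18 to 532 with a library left out. Of the pathway genes, aged+Ri against aged called 0, but 4 by DESeq2 and 1 with no filter, and aged against young 0, but 4, 1 and, with young 1 alone, 2. Aged+Ri against young called 2, but 19 by DESeq2, 6 by the newer method, 6 with no filter, 5 with the stricter filter, 1 with the 2 groups alone, 10 with young 1 alone and 0 to 7 with a library left out.

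The replicate numbers were not taken as pairs, since the labels do not say that they pair libraries and not every correlation between same-numbered libraries was over 0.1. The correlations of deviations from the group means were -0.072 to 0.122, with 3 of 9 same-numbered and 2 of 18 other pairs over 0.1. Of the 9 libraries 5 correlated best with their own number, a hint from the data and not the design. With the replicate number as a block, 2 genes were called for aged+Ri against aged, 6 for aged against young and 226 for aged+Ri against young, with 0, 0 and 5 of the pathway genes and 0 of the 9 sensing and RNase H2 genes in each. The block gave Sting1 -0.089 and Mavs 0.56 for aged against young, Aim2 0.15 for aged+Ri against aged and Rnaseh2a 0.046 for aged+Ri against young. Against young, the block also put Pycard (adjusted p 0.0305), Ninj1 (0.0479) and Tmed2 (0.0305) past edgeR's threshold. With 3 libraries a group the spread was wide enough that the Sting1 change of -2.76 was not called by edgeR, so the absence of a call does not show the absence of a change.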
